A study of Homo sapiens with 6 samples.

Results

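The retinoid genes described here are RARRES1 together with the retinoic acid receptors RARA, RARB and RARG, the partner receptor RXRA, the binding protein CRABP2, the retinal reductase DHRS3, the retinoic acid-forming enzyme ALDH1A3 and PLAAT4. They were chosen by symbol, with earlier results of the same comparison known, and their differences between the groups are therefore given as a description without a test. Of the 9 symbols, 8 matched a row of the count table, which holds 19469 genes, and PLAAT4 was not analysed here. The libraries came from L3.6pl, an established human pancreatic cancer cell line that the study lists as adenosquamous carcinoma from a metastatic lymph node. The cells were grown in serum-containing medium without further treatment. They were sorted by FACS on surface L1CAM into L1high and L1low cells, with 3 libraries of each. The cell line tag of the sample labels reads L6.6pl. All libraries stem from this single line, the cell fractions taken by the gates were not given in the sources used here, and nothing in the labels ties the replicates to separate cultures, so the spread between them may be technical. The study's own gene table leaves out L1high replicate 3 without a stated reason. Fold changes were accordingly computed over the other 5 libraries first and then over all 6, and log2FC, the log2 fold change of L1low over L1high cells, is positive where a transcript was higher in L1low cells. The ± after a log2FC is its standard error.

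Vitamin A acts through retinoic acid. Retinol is oxidized to retinal and then, by enzymes such as ALDH1A3, to retinoic acid, while DHRS3 reduces retinal back to retinol and so limits the supply. CRABP2 carries the acid to heterodimers of a RAR with an RXR, which bind paired hexamers in DNA and switch on target genes, among them RARB, DHRS3 and CRABP2 themselves. RARRES1, first named as a tazarotene-induced gene, encodes a membrane protein related to the carboxypeptidase inhibitor latexin and is silenced in several carcinomas. In epithelia, retinoids restrain squamous and cornifying differentiation.

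The sequences shown first are the best known type of retinoic acid response element and the promoters of RARRES1, DHRS3 and CRABP2. These genes had the largest log2FC of the 8 in either direction, though that of CRABP2 rested on low counts. Among the RefSeq promoters of the 8 genes (GRCh38.p14, from 250 bases before to 50 after each start, 16 starts in all), a direct repeat with a spacer of 5 bases (DR5) was found once. The hexamers searched were AGGTCA and, as variants of it, those that read AGTTCA or, with G as the first base, either GGGTCA or else GGTTCA, on both strands. The match lies in a RARB promoter at chr3:25428210-25428226 on the plus strand, from -53 to -37 relative to the start, with its hexamers in capitals.

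RARB DR5: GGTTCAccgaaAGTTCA

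A DR5 stood in 0.0883% of the 35116 RefSeq promoters of this length, a DR2 (spacer of 2 bases) in 0.0399% and a DR1 (spacer of 1 base) in 0.131%, and no other start of the 8 genes held any of these. A single hexamer was far more frequent and stood in 38.6% of all promoters. The parts of the promoters of RARRES1 (chr3:158732529-158732707, minus strand), DHRS3 (chr1:12618211-12618388, minus strand) and CRABP2 (chr1:156705817-156706034, minus strand) that no annotated exon covers read as follows, 5′ to 3′, with any hexamer in capitals.

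RARRES1 promoter: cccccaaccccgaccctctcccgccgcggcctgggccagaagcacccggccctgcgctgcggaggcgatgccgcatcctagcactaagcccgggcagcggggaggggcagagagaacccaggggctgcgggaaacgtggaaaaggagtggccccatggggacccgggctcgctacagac

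DHRS3 promoter: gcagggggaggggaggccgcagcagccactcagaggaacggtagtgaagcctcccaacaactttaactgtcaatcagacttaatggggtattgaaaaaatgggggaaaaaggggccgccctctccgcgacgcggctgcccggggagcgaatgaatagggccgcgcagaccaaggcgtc

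CRABP2 promoter: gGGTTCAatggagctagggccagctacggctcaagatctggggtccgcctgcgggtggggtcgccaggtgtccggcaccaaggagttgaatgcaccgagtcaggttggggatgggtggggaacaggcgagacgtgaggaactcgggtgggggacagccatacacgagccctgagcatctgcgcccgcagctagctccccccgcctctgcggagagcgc

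CRABP2 held 1 such hexamer in this stretch, and RARRES1 and this start of DHRS3 held none. DHRS3 has 2 further RefSeq starts, each with 1 hexamer in its window. A match in such a window describes the letters and no more.

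The libraries held 16334610 to 21064685 counts in all. The sorting marker L1CAM had a log2FC of -1.90 ± 0.12 over 5 libraries and -1.99 over 6. All 5 epithelial markers looked for (EPCAM, CDH1, KRT8, KRT18 and KRT19) had a row, with a summed level of 2696 to 3069 CPM (TMM-normalised counts relative to library size) in the L1high and 3045 to 3233 in the L1low libraries. None of 6 fibroblast markers had a row in the table, nor did 4 of 5 leukocyte markers (PTPRC, CD3E, LYZ and CD79A) and 3 of 4 endothelial markers (CDH5, VWF and KDR). CD68, the leukocyte marker with a row, lay at 8.42 to 8.81 CPM in L1high and 9.37 to 11.3 in L1low libraries, and PECAM1 at 11.3 to 11.9 and 13.2 to 14.7. Over all genes, 1473 of 19469 (7.57%) had an adjusted p under 0.05 over 5 libraries, with 4.41% of all genes called higher and 3.15% lower in L1low. With L1high replicate 3 added the shares were 7.95%, 4.58% and 3.37%.

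Of the 8 genes, 6 had a higher and 2 a lower fitted level in L1low cells, or 5 and 3 with RLE factors, library totals or DESeq2, where ALDH1A3 lay just below 0. Their median log2FC was 0.33, that of all genes 0.0016. For 6 of them (RARRES1, CRABP2, DHRS3, RXRA, RARG and RARA) the values of the 3 L1low libraries lay apart from those of the 3 L1high libraries, as was the case for 28.8% of all genes (15.2% higher and 13.7% lower in L1low). Past the threshold over all genes were 5 of the 8 (4 higher and 1 lower in L1low cells), both over 5 libraries (7.57% of all genes, 4.41% higher and 3.15% lower) and over 6 (7.95%, 4.58% and 3.37%), a count that the choice of the genes with these results in view does not allow to be read as evidence. It was 4, without RARA, when L1low replicate 2 was left out, a fit that called 551 of 19467 genes in all. With L1high replicate 3 in place of L1high replicate 1 it was 3, without RARA and RARG, and 674 of 19468 genes were called. The fit over 5 libraries called 1473 of 19469. In sorted bulk RNA, fewer cells expressing a gene and less RNA per cell cannot be told apart.

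**Figure D1:**
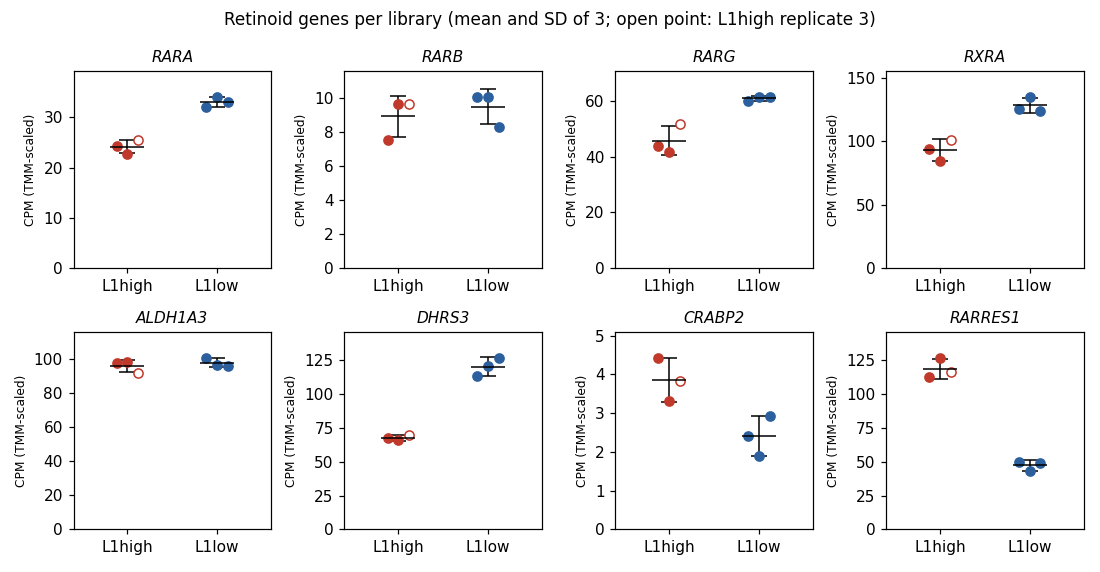
Level of each of the 8 genes in TMM-scaled CPM (y axis from 0) in the 3 L1high (red) and 3 L1low (blue) libraries, with the mean and SD of the 3 libraries as black lines and L1high replicate 3 as an open point. RARRES1 and CRABP2 lay lower in every L1low library than in any L1high library, DHRS3, RXRA, RARG and RARA lay higher, and RARB and ALDH1A3 overlapped.

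RARRES1 (ENSG00000118849, chr3:158696892-158732489 on GRCh38, minus strand) was the most abundant of these transcripts in L1high cells and the one whose level differed most. It stood at 113, 127 and 116 CPM in L1high replicates 1, 2 and 3, and at 50.0, 42.9 and 49.0 CPM in L1low replicates 1, 2 and 3. These levels rest on 1907 to 2603 counts per L1high library and 770 to 908 per L1low library. Every L1low library thus lay far below the lowest L1high library, and the replicates of each group lay close together. L1high replicates 1 and 2 averaged 120 ± 9.81 CPM (SD, n = 2) and all L1high libraries 119 ± 7.24 (SD, n = 3). The L1low libraries averaged 47.3 ± 3.84 CPM (SD, n = 3). The log2FC was -1.33 ± 0.09 over 5 libraries and -1.33 ± 0.08 over 6, and the level was 2.52-fold higher in L1high than in L1low cells over 5 libraries.

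RARRES1 starts head to head with MFSD1, which encodes a membrane transporter of the major facilitator superfamily, and shares 292 exonic bases with it on opposite strands. MFSD1 stood at 37.1, 36.4 and 39.2 CPM in the L1high and at 37.0, 31.0 and 28.2 in the L1low libraries, so the groups overlapped. The log2FC of MFSD1 was -0.19 ± 0.12 (adjusted p = 0.37). A lncRNA that starts beside it on the same strand, ENSG00000240207, shares 227 exonic bases with RARRES1 on the opposite strand. Its level fell in L1low cells (log2FC -1.18 ± 0.27, adjusted p = 0.018), from 5.33, 3.07 and 4.81 CPM in the L1high to 1.93, 1.89 and 1.69 in the L1low libraries, and was not called without L1low replicate 2 (log2FC -1.21, adjusted p = 0.072). The libraries were stranded, but whether the counting used strand is not given in the sources used here, so reads of RARRES1 and of this lncRNA cannot be told apart in the bases they share.

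LXN, which encodes latexin, the relative of RARRES1, lies on the same strand with its start 59.8 kb from that of RARRES1. Its levels were 39.8, 44.8 and 38.4 CPM in L1high and 22.6, 22.8 and 22.9 CPM in L1low replicates 1, 2 and 3, without overlap. LXN fell in L1low cells, with a log2FC of -0.88 ± 0.10 over 5 libraries (adjusted p = 1.5e-04) and -0.85 over 6 (adjusted p = 1.4e-04). GFM1, a mitochondrial translation factor within whose bounds LXN lies on the other strand, had a log2FC of -0.17 (adjusted p = 0.22). Within 250 kb of the RARRES1 start, a window chosen after values were seen, 7 other genes had a row, and LXN and ENSG00000240207 were the 2 with a call over 5 libraries, where 7.57% of all genes had one. Over 6 (7.95% of all genes), IQCJ-SCHIP1 was called as well (adjusted p = 0.045, against 0.097 over 5).

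**Figure D2:**
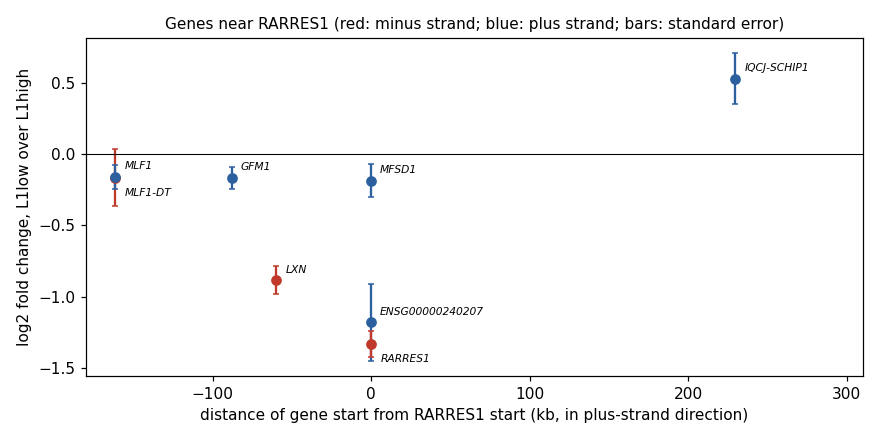
Log2 fold change over 5 libraries (y axis, L1low over L1high, with standard errors) of the genes that start within 250 kb of RARRES1, against the distance between the starts in kb (x axis). RARRES1 (-1.33), ENSG00000240207 (-1.18) and LXN (-0.88) stood apart from MFSD1 (-0.19), GFM1 (-0.17), MLF1 (-0.16), MLF1-DT (-0.17) and IQCJ-SCHIP1 (0.53).

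Among the receptors, RXRA (ENSG00000186350, chr9:134317098-134440585), the common heterodimer partner, was at 93.9, 84.4 and 101 CPM in L1high and at 126, 135 and 124 CPM in L1low replicates 1, 2 and 3. The highest L1high library of RXRA, replicate 3, stayed below every L1low library. The log2FC of RXRA was 0.54 ± 0.08 over 5 libraries and 0.46 ± 0.08 over 6.

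RARG (ENSG00000172819, chr12:53210567-53232980), the receptor that prevails in epidermis, was at 43.7, 41.8 and 51.7 CPM in L1high and at 59.7, 61.2 and 61.5 CPM in L1low replicates 1, 2 and 3. L1high replicate 3 again lay nearest to the L1low libraries, without reaching them. Its log2FC was 0.52 ± 0.09 over 5 libraries and 0.41 ± 0.09 with L1high replicate 3 included.

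RARA (ENSG00000131759, chr17:40309180-40357643), the most widely expressed of the 3 receptors across tissues, was at 24.4, 22.8 and 25.4 CPM in L1high and at 32.1, 34.2 and 33.0 CPM in L1low replicates 1, 2 and 3. The groups did not overlap. The log2FC was 0.50 ± 0.10 over 5 libraries and 0.45 ± 0.09 over 6. RARA-AS1, an antisense gene that shares 556 exonic bases with RARA, held 28 to 53 counts per library against 417 to 613 for RARA. Its log2FC was 0.74 (adjusted p = 0.11). ENSG00000278918, also antisense, shares 291 exonic bases with RARA and held 65 to 118 counts, with a log2FC of 0.51 (adjusted p = 0.11). If strand was not used in counting, reads in the shared bases cannot be told apart from those of RARA.

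RARB (ENSG00000077092, chr3:24687887-25597932), itself a classical target of retinoic acid, was the lowest of the receptors. It was at 7.54, 9.64 and 9.62 CPM in L1high and at 10.1, 10.1 and 8.30 CPM in L1low replicates 1, 2 and 3, on 147 to 198 counts per library. The groups overlapped, and the log2FC was 0.15 ± 0.16 over 5 libraries and 0.09 ± 0.14 over 6. With L1high replicate 3 in place of L1high replicate 1 the value was -0.02.

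Per length of annotated exon, RARG made up 59.5% ± 1.56 of the summed RPKM of the 3 RAR genes in L1high and 59.8% ± 0.697 in L1low libraries (SD, n = 3 each). RARA made up 34.2% ± 1.51 and 35.2% ± 0.460, and RARB 6.34% ± 0.90 and 5.06% ± 0.556. The ranges of the groups overlapped for RARG and RARA. For RARB, L1high libraries held 5.52% to 7.30% and L1low libraries 4.43% to 5.47%, which did not overlap, but by a margin far under the spread between replicates.

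ALDH1A3 (ENSG00000184254, chr15:100877714-100916626), which forms retinoic acid from retinal, differed between the groups by less than its replicates did. Its levels were 97.6, 98.5 and 91.9 CPM in L1high and 101, 96.6 and 96.2 CPM in L1low replicates 1, 2 and 3. The log2FC was 0.0055 ± 0.08 over 5 libraries and 0.03 ± 0.07 over 6, with a range of -0.02 to 0.05 over the other settings tried. ALDH1A3-AS1 shares 1715 exonic bases with ALDH1A3 on the opposite strand and held 901 to 1257 counts per library, so the level of ALDH1A3 is uncertain if strand was not used. The log2FC of ALDH1A3-AS1 was 0.05 (adjusted p = 0.80).

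DHRS3 (ENSG00000162496, chr1:12567910-12618210), which draws retinal back to retinol and is itself induced by retinoic acid, showed the largest difference upward. It was at 67.3, 65.7 and 69.6 CPM in L1high and at 113, 121 and 127 CPM in L1low replicates 1, 2 and 3. The lowest L1low library exceeded the highest L1high library by more than the whole range of either group. L1high replicates 1 and 2 averaged 66.5 ± 1.13 CPM (SD, n = 2) and the L1low libraries 120 ± 6.93 (SD, n = 3). The log2FC was 0.86 ± 0.08 over 5 libraries and 0.83 ± 0.07 over 6, and the level was 1.82-fold higher in L1low cells over 5 libraries. MIR6730, a microRNA gene inside DHRS3 on the same strand, had 58 to 115 counts per library and rose in L1low cells (log2FC 0.87 ± 0.18, adjusted p = 0.012). Its reads cannot be told apart from those of the DHRS3 transcript around it.

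CRABP2 (ENSG00000143320, chr1:156699606-156705816), the carrier of retinoic acid to its receptors, was low in both groups. It stood at 4.43, 3.31 and 3.84 CPM in L1high and at 2.42, 1.89 and 2.94 CPM in L1low replicates 1, 2 and 3, on 34 to 94 counts per library. The groups did not overlap, but L1low replicate 3 lay close to L1high replicate 2. The log2FC was -0.67 ± 0.24 over 5 libraries and -0.68 ± 0.21 over 6, and CRABP2 did not pass the threshold in either fit. Its relative CRABP1 had more counts and ranged over 11.3 to 14.9 CPM in the L1high and 9.77 to 12.6 in the L1low libraries. It was not called (log2FC -0.12, adjusted p = 0.67).

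**Figure D3:**
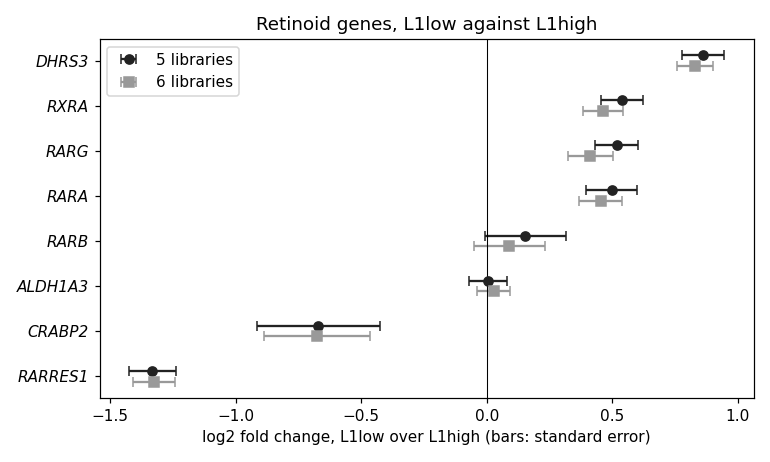
Log2 fold change of L1low over L1high (x axis) with its standard error for the 8 genes, over 5 libraries (black circles) and all 6 (grey squares). RARRES1 (-1.33) and DHRS3 (0.86) mark the ends, RXRA, RARG and RARA lie close together between 0.41 and 0.54, and the bars of ALDH1A3 and RARB cross 0 in both fits.

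Levels of different genes were compared per length, as RPKM over all annotated exon bases. In L1high cells the order was RARRES1 (58.4 ± 3.57 RPKM), DHRS3 (19.2 ± 0.559), ALDH1A3 (18.0 ± 0.678), RARG (8.92 ± 1.03), RXRA (7.72 ± 0.708), RARA (5.10 ± 0.278), CRABP2 (3.57 ± 0.518) and RARB (0.946 ± 0.128), each SD with n = 3. The libraries of RARG and RXRA overlapped, and the other neighbours did not. In L1low cells DHRS3 (34.2 ± 1.97 RPKM) stood above RARRES1 (23.3 ± 1.89), the reverse of their order in L1high cells. ALDH1A3 (18.3 ± 0.477), RARG (11.9 ± 0.185), RXRA (10.6 ± 0.496), RARA (6.98 ± 0.218), CRABP2 (2.23 ± 0.482) and RARB (1.004 ± 0.109) followed, and no neighbours overlapped. With the length of the canonical transcript in place of all exons, RXRA came before RARG in both groups, and in L1low cells ALDH1A3 before RARRES1 and RARB before CRABP2, while the exchange between RARRES1 and DHRS3 was the same. The aligner named by the study does not split reads across splice junctions, which bears on comparisons between genes.

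The wider retinoid pathway was looked at through 98 further symbols, of which 63 had a row. By edgeR's quasi-likelihood test, 12 of them (19.0%) were called at an adjusted p below 0.05, 8 higher and 4 lower in L1low, against 7.57% of all genes. Over all 6 libraries 12 were called as well, against 7.95%. The values of the 2 groups lay apart for 31 of the 63, against 28.8% of all genes. The median log2FC of the 63 was 0.08. The 63 include epidermal genes and relatives of RARRES1 beside genes of the pathway itself. The lists were written with earlier results of these data known. Their counts of calls, here and per list below, are therefore a description and no evidence.

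The further enzymes and carriers of retinoid metabolism gave no call. None of 6 genes for uptake, binding and storage, none of 9 retinol and retinal enzymes and neither ALDH1A1 (synthesis) nor CYP26B1 (clearance) passed in edgeR or in DESeq2. Without adjustment 0, 2, 0 and 1 of them had a p under 0.05 in edgeR's test. RDH11, a retinal reductase, stood at 125, 134 and 128 CPM in the L1high and 110, 108 and 114 in the L1low libraries (log2FC -0.22, adjusted p = 0.10). ALDH1A1 had a log2FC of -0.18 (adjusted p = 0.30). CYP26B1, which degrades retinoic acid, had one of 0.40 (adjusted p = 0.20), from 5.99, 4.67 and 5.48 CPM in the L1high to 6.22, 6.85 and 7.96 in the L1low libraries.

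Of 16 genes known to be induced by retinoic acid, 3 were called and all 3 rose in L1low cells (18.8%, against 4.41% of all genes called higher). IGFBP6, a binding protein that restrains IGF2, rose (log2FC 1.05 ± 0.09, adjusted p = 1.8e-05) from 33.2, 33.6 and 38.6 CPM in the L1high to 64.5, 69.1 and 72.9 in the L1low libraries. GPRC5A, an orphan receptor first found as a retinoic acid-induced gene, rose (log2FC 0.55 ± 0.07, adjusted p = 4.3e-04) from 253, 265 and 259 CPM to 374, 378 and 382. IGFBP3, the main carrier of IGFs in blood, rose (log2FC 0.53 ± 0.08, adjusted p = 0.0022) from 82.0, 92.6 and 82.9 CPM to 119, 126 and 130. The other 13 were not called, among them the clock regulator BHLHE40, the most abundant of the list per length (log2FC -0.0020), and TNFAIP2 (0.29, adjusted p = 0.11). The median log2FC of the 16 was 0.09.

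The epidermal genes that retinoids restrain in keratinocytes moved both ways, and all 3 with a row were called, 1 higher and 2 lower (4.41% and 3.15% of all genes). TGM1, the transglutaminase that crosslinks the cornified envelope, rose (log2FC 1.504 ± 0.12, adjusted p = 7.0e-06) from 17.0, 14.6 and 18.0 CPM in the L1high to 40.6, 45.3 and 47.8 in the L1low libraries. KRT10, a keratin of suprabasal epidermis, fell (log2FC -0.79 ± 0.09, adjusted p = 2.1e-04) from 81.1, 97.0 and 84.3 CPM to 49.2, 52.0 and 52.5. Its partner KRT1 fell (log2FC -2.0 ± 0.39, adjusted p = 0.0083), but on only 5 to 46 counts per library, and was not called with L1high replicate 3 in place of L1high replicate 1 (-1.57, adjusted p = 0.079).

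Nuclear receptor coregulators lay on one side. All 12 had a positive log2FC under each scaling tried, where 9194 to 9795 of 19469 genes had one. Several were smaller than their standard error, such as TBL1XR1 (0.08 ± 0.13), and the groups overlapped for 3 of the 12. The median was 0.16 over 5 libraries and 0.20 over 6, and 3 were called higher (4.41% of all genes were). Among these were the coactivator NCOA3 (0.40, adjusted p = 0.013) and the acetyltransferase CREBBP (0.37, adjusted p = 0.020). All 3 calls were lost without L1low replicate 2, a fit that called 551 of 19467 genes in all. There NCOA3 had a log2FC of 0.39 (adjusted p = 0.092) and CREBBP one of 0.34 (adjusted p = 0.14). With L1high replicate 3 in place of L1high replicate 1, CREBBP was not called either (0.33, adjusted p = 0.11).

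Among 8 receptors that pair with RXR, PPARD, a lipid-sensing receptor, was the 1 called, where 4.41% of all genes were called higher and 3.15% lower. It was at 31.9, 28.1 and 32.2 CPM in L1high and at 43.0, 42.2 and 46.3 CPM in L1low replicates 1, 2 and 3, and rose in L1low cells (log2FC 0.55 ± 0.10, adjusted p = 0.0051). VDR (0.14) and PPARG (0.07) were not called. RXRB, a relative of RXRA, had a log2FC of 0.03 (adjusted p = 0.92). Of the relatives of RARRES1 and PLAAT4, LXN fell as described above, and PLAAT3 (-0.34, adjusted p = 0.21) and PLAAT1 (-0.30, adjusted p = 0.54) were not called.

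**Figure D4:**
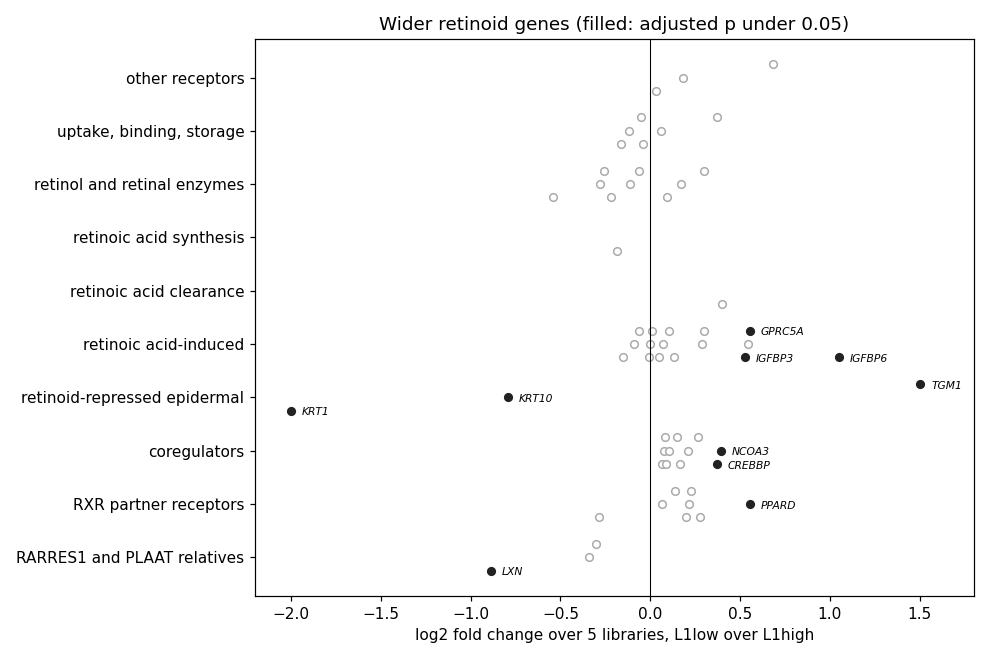
Log2 fold change over 5 libraries (x axis, L1low over L1high) of 61 wider retinoid genes, 1 point per gene and 1 row per list, filled and named where the adjusted p was under 0.05. The lists of enzymes and carriers hold no filled point, the 11 coregulators plotted all lie right of 0, and TGM1 (1.504) and KRT1 (-2.0) mark the ends.

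The genes whose pattern was most like that of RARRES1 were sought among the 17022 genes whose log2 CPM averaged 1 or more, by Pearson's r of log2 CPM over the 6 libraries. These libraries form 2 groups, so r mostly reads the difference between them, and 347 genes had an r above 0.95 and 573 one below -0.95. The highest were KPNA2 (r = 0.9991), an importin subunit that is high in dividing cells, EMP2 (0.997), MGLL (0.997), SERPINB1 (0.997) and ECEL1 (0.997). KPNA2 stood at 483, 504 and 493 CPM in L1high and 335, 320 and 340 CPM in L1low replicates 1, 2 and 3, a log2FC of -0.56. The lowest were PGPEP1 (-0.9985), CNN2 (-0.998), MBD6 (-0.997), ENSG00000269926 (-0.997) and CALML3 (-0.997), a calmodulin-like protein of epithelia, at 10.6, 8.13 and 9.08 CPM in the L1high and 29.2, 34.5 and 32.5 in the L1low libraries. Among the retinoid genes, RARA (-0.989) and DHRS3 (-0.989) mirrored RARRES1 most closely and RARB (-0.27) least.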

How the data were processed

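RNA of 3 L1high and 3 L1low L3.6pl libraries was measured by RNA-seq. The authors aligned paired-end reads to GRCh38 with BWA, counted them with featureCounts on Ensembl release 94, and deposited read counts per gene without normalization. Tool versions and strand or multi-mapping options are not given in the sources used here. All 19469 genes listed exceed 1 CPM in 2 or more libraries, so lower ones could not be assessed.

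From these counts, edgeR 4.0.16 in R 4.3.3 (TMM, filterByExpr, quasi-likelihood test, Benjamini-Hochberg adjustment over all genes, calls at adjusted p under 0.05) compared L1low replicates 1 to 3 with L1high replicates 1 and 2, and then all 6 libraries. All adjusted p in the text are from this test over 5 libraries unless stated. The standard error is the size of the log2 fold change over the square root of F. CPM use TMM factors over 6 libraries, and RPKM divide these by the exon bases of GENCODE 44, which matched 19344 rows. Library totals of 16334610 to 21064685 gave a median standard error of 0.09 for genes with an average log2 CPM from 5 to 7 and of 0.22 from 1 to 3. In simulated counts for 19468 genes, 92.5% of 200 genes given a log2 change of 1 were recovered in this comparison, and 6 of 191 calls were false. The simulation gave every gene the same dispersion and changed only genes above a minimum count. Of the genes described, RARRES1 alone differed by that much, so the share recovered does not hold for the smaller differences. No pair of libraries within a group was a duplicate (chi-square per degree of freedom of at least 3.66). Pairs across the groups were not compared.

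The genes described and the lists were chosen with earlier results of these data known. Named are the 9 symbols, L1CAM, list genes called or among the 5 most abundant of their list, and the 5 genes most and least like RARRES1. Genes near or overlapping these were named after their values were seen. Alternatives were other libraries, a replicate block, DESeq2 1.42.0, other scaling and other filters. The values of 2 genes of the wider lists are not reported here, though the lists' counts include them.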

Additional observations from a re-analysis of the deposited data

How the results depend on the processing

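Of 309 values recomputed under the alternatives, 0 reversed a call. Counts, medians and genes without a call over 5 libraries could not do so, and RARB and ALDH1A3 changed sign in some settings. In all, 12 values were counted as moved. Of these, 4 were the log2FC of RARG, which then lay more than its standard error from that over 5 libraries. The 8 retinoid genes were chosen with results of this comparison in view, so their calls and adjusted p are a description and no evidence. RARA lost its call without L1low replicate 2 (adjusted p = 0.080). Using L1high replicates 2 and 3 alone, the adjusted p was 0.0503 for RARA and 0.095 for RARG, again without a call. Among the wider genes and ENSG00000240207, 7 values lost a call. RARRES1 stayed between -1.38 and -1.27, DHRS3 between 0.81 and 0.90, RXRA between 0.40 and 0.56, RARG between 0.35 and 0.53, RARA between 0.41 and 0.52, CRABP2 between -0.83 and -0.53 and RARB between -0.02 and 0.24. The 12 calls among the 63 wider genes were 9 without L1low replicate 2, where 551 of 19467 genes were called in all. They were also 9 with L1high replicate 3 in place of replicate 1, where 674 of 19468 were called. Over the 5 libraries 1473 of 19469 were called, so calls over all genes fell as well in these fits. In the fits without a replicate block, calls over all genes ran from 551 (without L1low replicate 2) to 1649 (without L1low replicate 3). They were 674 with L1high replicate 3 in place of replicate 1. With all 6 libraries and the replicate number as a block, 2363 of 19467 genes were called, among them 14 of the 63 wider genes. Whether the numbers pair the libraries was not settled. The deviations from the group means correlated by 0.12, 0.0967 and 0.29 between same-numbered libraries and by -0.20 to 0.11 between the others. Each L1low library correlated best with the L1high library of its number, but L1high replicate 2 correlated best with L1low replicate 1. Under the block 6 of the 8 retinoid genes passed, a count that is again no evidence, given how they were chosen. CRABP2 was the addition (log2 fold change -0.68, adjusted p = 0.039, against 0.064 to 0.34 under the other edgeR settings). DESeq2 gave CRABP2, KRT1 and ENSG00000240207 no adjusted p, and KRT1 could not be tested with at least 10 counts in every library. The filter removed no gene, so leaving it out tests nothing. Standard errors were larger at low counts (0.24 for CRABP2 on 34 to 94 counts per library and 0.39 for KRT1 on 5 to 46).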
